A study of Mus musculus with 22 samples.

Results

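Imprinted genes were followed in the urogenital sinus epithelium of mouse fetuses after loss of Sox9, with Peg10 and Cdkn1c as the genes of first interest. The set held 42 genes from 17 imprinted clusters or single loci. A gene was measured where a probe set of the array carried its symbol and no other symbol, which was the case for 37 of the 42 genes. Of these, 33 had a value over the median transcript cluster on at least 5 arrays and were tested, among 19050 genes tested in all. Zdbf2 passed this filter on 12 arrays and the other tested members on all 22. Asb4, Tspan32, Dio3 and Usp29 did not lie above the array median on any array and were not tested. H19, Meg3, Rian, Mirg and Snrpn had no probe set of their own, because their probe sets also carried the symbols of other transcripts within the same gene.

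The epithelium came from C57BL/6J fetuses at E16.75, in 4 groups by sex and genotype. The knockouts were ShhCre/+; Sox9fl/fl and the littermate controls Shh+/+; Sox9+/fl, so the controls also carried a floxed Sox9 allele. The males gave 6 controls and 6 knockouts and the females 5 controls and 5 knockouts, each an array of total RNA described as a biological replicate. Cre sat at a Shh allele in every knockout and in no control, so loss of Sox9, the Cre allele and a lower dose of Shh cannot be told apart. Trypsin and collagenase were used to free the epithelium from its mesenchyme, and the epithelium of bladder and urethra was taken off. Whether an array held the RNA of 1 fetus or of a pool, and which fetuses shared a litter, is not given in the sources used here. The p-values therefore measure the spread between these arrays. The arrays do not separate the maternal from the paternal copy of a gene, and parental origin is used below only as textbook knowledge of which copy is active. That knowledge can hold for some tissues only, and the active copy in this epithelium was not measured.

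At an imprinted gene the copy inherited from the mother or the copy inherited from the father is silent. The genes lie in clusters, in which a methylated control region, and in several clusters a long noncoding RNA, sets which copy is read. Many imprinted genes act on fetal growth: paternally expressed genes such as Igf2 often promote it, while maternally expressed genes such as Cdkn1c, Phlda2, Igf2r and Grb10 often restrain it. The urogenital sinus epithelium forms the prostatic buds in the male, and Sox9 is a transcription factor of those buds.

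In the libraries as a whole, Sox9 was between 8.00 and 8.37 on the log2 scale in male knockouts against 9.05 to 9.61 in male controls, and between 7.81 and 7.99 in female knockouts against 8.77 to 9.05 in female controls. All 11 markers of sinus epithelium (Epcam, Cdh1, keratins, Trp63 and others) were measured, and their mean per array ran from 11.08 to 11.23. Single markers among them differed between groups, as given below with the other marker lists. Male control 6 stood apart. The mean of 13 mesenchyme markers was 7.32 on that array while the other male controls ran from 6.41 to 6.70 and the male knockouts from 6.40 to 6.82. In females it ran from 6.52 to 6.71 in controls and from 6.56 to 6.66 in knockouts. The mean of 9 smooth muscle markers was 7.24 on male control 6 and at most 6.31 in the other male controls. Of the 15 mesenchyme markers measured, Fgf10 was above the array median on 0 arrays and Postn on 1 array, and neither is in the mean of 13. Of those 13, Zeb1 was above it on 12 arrays and the others on all 22. Over all arrays Dcn ran from 9.38 to 10.35 and Col1a1 from 7.08 to 8.97. Values without this array are given beside the calls of members that rest on male controls and beside several other values.

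In males, 3 of the 33 imprinted genes were lower in Sox9 knockouts than in controls. Peg10 fell by 0.83 on the log2 scale, its neighbour Sgce by 0.47 and Cdkn1c by 0.19, and no member was called higher (0.0210% of all genes were). The share was 9.09% of members, against 0.199% of all genes tested (38 genes) and 0.178% called lower. The members were chosen with earlier results of these data known, and Peg10 and Cdkn1c were of first interest among them. This and later shares of members therefore describe this list and not imprinted genes in general. The call was an adjusted p under 0.05 (limma, Benjamini-Hochberg over all genes tested). The remaining 30 members lay between -0.33 and 0.26. The median log2 fold change of the 33 members was -0.02, with 18 below zero, and that of all genes tested was 0.01. With male control 6 left out, 15 of the 33 lay below zero, their median was 0.00, and the 32 members other than Peg10 lay between -0.37 and 0.18.

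Peg10 encodes a protein derived from the gag and pol genes of a retrotransposon, is read from the paternal copy and is needed for formation of the placenta. Its log2 value in male controls was 6.99, 7.36, 7.15, 7.61, 7.41 and 8.17, the last from male control 6. In male knockouts it was 6.59, 6.53, 6.70, 6.73, 6.73 and 6.42. Every male knockout lay below every male control. The means were 7.45 ± 0.41 (SD, n = 6) and 6.62 ± 0.13 (SD, n = 6), a 1.78-fold difference (log2 fold change -0.83, SE 0.14, adjusted p = 0.00504). The two-sided exact permutation p was 0.00216, the smallest that 6 against 6 arrays can give. Without overlap in either direction were 0.420% of all genes. Without male control 6 the fold change was -0.69 (SE 0.11, adjusted p = 0.00368). That array was the highest male control, so leaving it out could not make the groups overlap. With the mesenchyme mean of each array as a covariate the fold change was -0.76 (adjusted p = 0.000356). With the 12 male arrays alone in the model the adjusted p was 0.0581.

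Sgce encodes epsilon-sarcoglycan, a membrane protein of the dystrophin-associated complex, and is read from the paternal copy in the opposite direction to Peg10 from the same control region. Its values in male controls were 5.84, 5.91, 5.98, 6.04, 5.64 and 6.46. In male knockouts they were 5.71, 5.41, 5.47, 5.58, 5.50 and 5.40. The groups overlapped by 1 array on each side, male control 5 and male knockout 1. Means were 5.98 ± 0.27 and 5.51 ± 0.12 (SD, n = 6 each), a 1.38-fold difference (-0.47, SE 0.10, adjusted p = 0.0436, exact permutation p = 0.00433). Without male control 6 the difference was -0.37 (SE 0.08) with an adjusted p of 0.0627, and Sgce was no longer called. With the mesenchyme covariate it was -0.42 (adjusted p = 0.0102).

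Cdkn1c encodes p57, an inhibitor of cyclin-dependent kinases that holds back cell division, and is read from the maternal copy. In male controls it measured 9.23, 9.12, 9.26, 9.14, 9.12 and 9.33. In male knockouts it measured 8.98, 8.99, 9.00, 9.00, 9.00 and 9.09. The highest male knockout lay below the lowest male control, though the 2 arrays differed little. Means were 9.20 ± 0.09 and 9.01 ± 0.04 (SD, n = 6 each), a 1.14-fold difference (-0.19, SE 0.04, adjusted p = 0.0461, exact permutation p = 0.00216). The spread of Cdkn1c between arrays of a group was small: the pooled SD was 0.057, at percentile 3.0 of all genes tested, whereas that of Peg10 was 0.261, at percentile 95.6. Without male control 6 the difference was -0.17 (SE 0.04) with an adjusted p of 0.122, so the call was lost. It was also lost with the mesenchyme covariate (-0.18, adjusted p = 0.0678).

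In bulk RNA, fewer cells that hold a transcript and less transcript in each cell cannot be told apart. Without male control 6, Peg10 was the only member called in males, against 0.142% of all genes (27 genes).

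**Figure D1:**
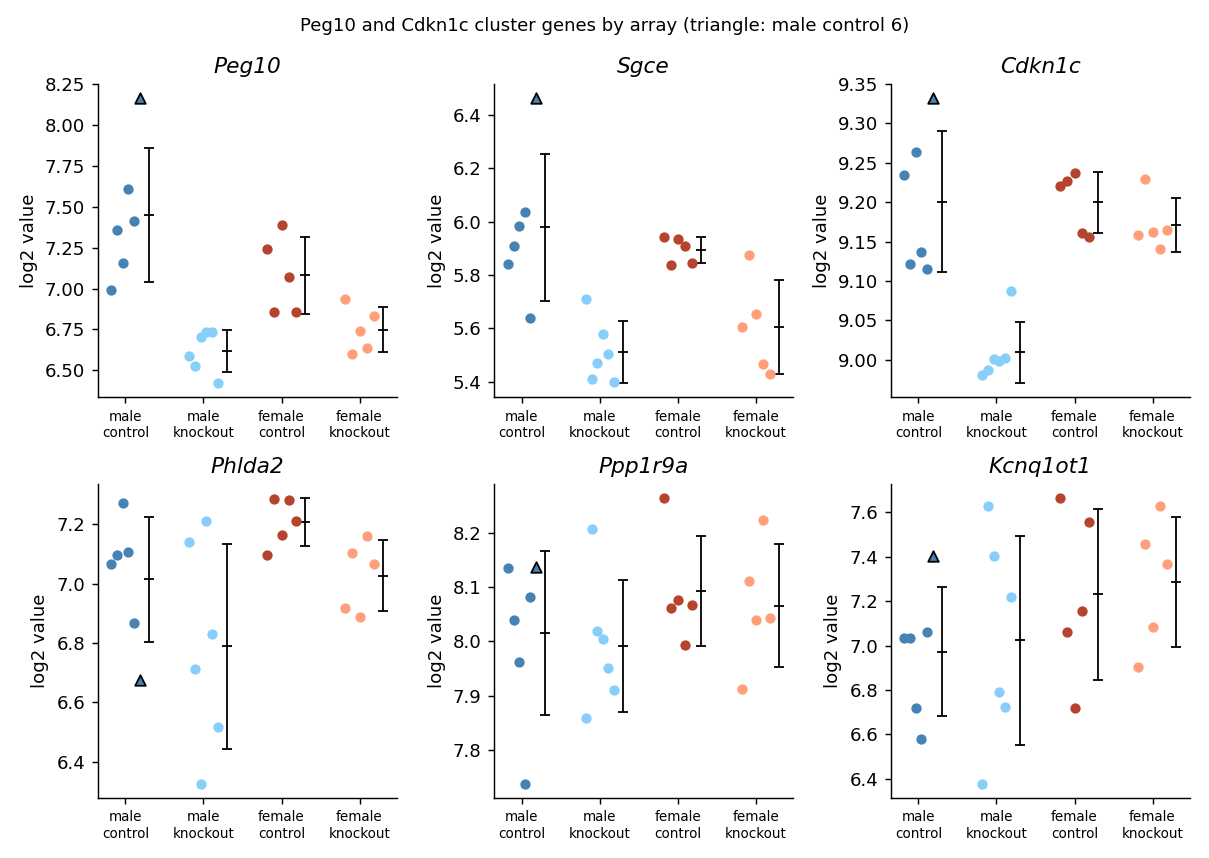
Deposited log2 value of 6 genes of the Peg10 and Cdkn1c clusters on each array (points), by group, with the group mean and SD beside the points. Each panel has its own axis, which does not start at 0. The triangle is male control 6, the highest array for Peg10 (8.17), Sgce (6.46) and Cdkn1c (9.33). All male knockouts lie below all male controls for Peg10 and Cdkn1c, and the groups overlap for Phlda2, Ppp1r9a and Kcnq1ot1.

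In females no member was called, against 0.0315% of all genes (6 genes, all lower), with 4 of the 33 members (12.1%) at an unadjusted p under 0.05 in limma, against 5.46% of all genes. Peg10 measured 7.24, 6.86, 7.39, 7.07 and 6.86 in female controls and 6.94, 6.60, 6.74, 6.63 and 6.83 in female knockouts. The highest female knockout lay above the lowest female controls. The difference was -0.33 (SE 0.15, 95% interval -0.64 to -0.02, unadjusted p = 0.0385, adjusted p = 0.890). Sgce measured 5.94, 5.84, 5.93, 5.91 and 5.84 in controls and 5.60, 5.87, 5.66, 5.47 and 5.43 in knockouts. Female knockout 2 overlapped the controls and the other 4 knockouts lay below them. The difference was -0.29 (SE 0.11, 95% interval -0.51 to -0.07, unadjusted p = 0.0129, adjusted p = 0.855). Cdkn1c measured 9.22, 9.23, 9.24, 9.16 and 9.16 in controls and 9.16, 9.23, 9.16, 9.14 and 9.16 in knockouts. Those ranges overlapped, and the difference was -0.03 (95% interval -0.12 to 0.06). Necdin, encoded by the paternally expressed Ndn, was 0.21 higher in female knockouts (SE 0.07, unadjusted p = 0.00724, adjusted p = 0.783). Nap1l4, which encodes a nucleosome assembly protein, was -0.09 (SE 0.04, unadjusted p = 0.0317, adjusted p = 0.880); its 5 knockouts (9.79 to 9.89) lay below its 5 controls (9.91 to 9.97), as did 0.619% of all genes without overlap.

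Averaged over the sexes, 2 members were called, against 0.247% of all genes (47 genes), and both fell. Peg10 fell by 0.58 (SE 0.10, 1.5-fold, adjusted p = 0.00671) and Sgce by 0.38 (SE 0.07, 1.30-fold, adjusted p = 0.0149). These 2 calls were also made without male control 6, at -0.51 (adjusted p = 0.00143) and -0.33 (adjusted p = 0.00554), where 0.226% of all genes were called. Cdkn1c stood at -0.11 (SE 0.03, adjusted p = 0.193). The comparison shares its arrays with those within each sex and is not separate evidence.

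Whether the effect differed between the sexes was tested as an interaction, and no member was called, against 0.00525% of all genes (1 gene). At an unadjusted p under 0.05 in limma were 3 of the 33 members and 4.04% of all genes. The male effect minus the female effect was -0.50 for Peg10 (SE 0.20, unadjusted p = 0.0229), -0.16 for Cdkn1c (SE 0.06, unadjusted p = 0.0120) and -0.30 for Ndn (SE 0.10, unadjusted p = 0.00519), each with an adjusted p of 0.997. For Sgce it was -0.18 (SE 0.14, 95% interval -0.48 to 0.12). Leaving out male control 6 gave -0.36 for Peg10 (SE 0.15), -0.14 for Cdkn1c (SE 0.06), -0.26 for Ndn (SE 0.09) and -0.08 for Sgce (SE 0.11). A difference between the sexes was thus not shown for these genes.

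**Figure D2:**
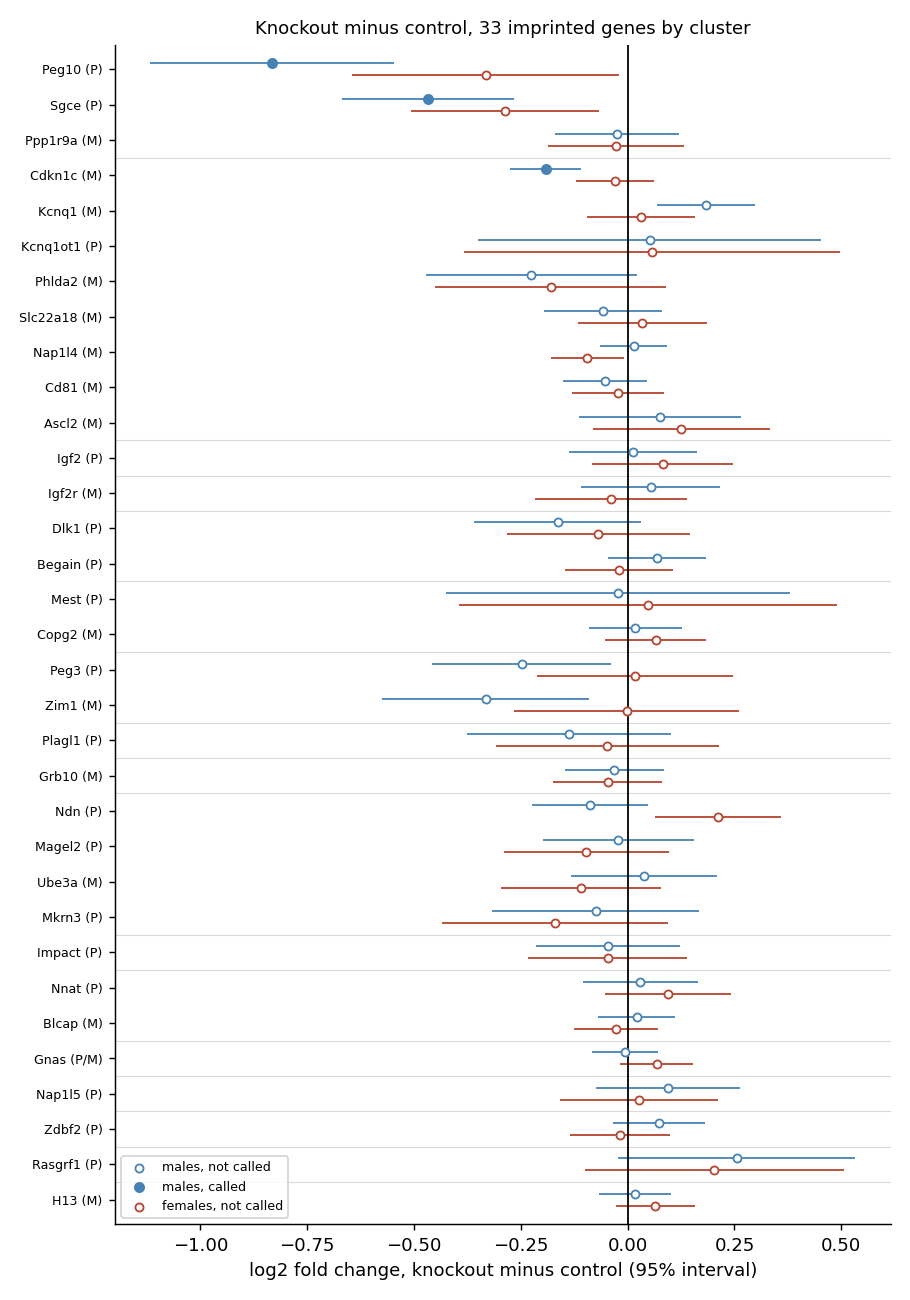
Log2 fold change of knockout minus control (points) with its 95% interval (lines) for the 33 tested members, in males and females, ordered by cluster with grey lines between clusters. P and M mark the parental copy listed as read, and filled points are called at an adjusted p under 0.05. Peg10, Sgce and Cdkn1c in males are the filled points, at -0.83, -0.47 and -0.19.

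The fall at Peg10 and Sgce was set beside the genes around them. In chromosome order, the 10 nearest tested genes, 5 on each side of Peg10, were Gng11, Bet1, Col1a2, Casd1 and Sgce before it and Ppp1r9a, Pon3, Pon2, Pdk4 and Slc25a13 after it. Sgce was the 1 of these 10 called in males. Casd1, on the far side of Sgce, was at -0.07 (SE 0.08). Ppp1r9a, which encodes the actin-binding scaffold neurabin-I and is read from the maternal copy in some tissues, was at -0.02 (SE 0.07, 95% interval -0.17 to 0.12), and at 0.00 without male control 6. Apart from Sgce, Col1a2 had the value farthest below zero, -0.23 (SE 0.18), and this collagen gene is also among the mesenchyme markers; without male control 6 it stood at -0.01. In females the 10 neighbours ran from -0.29 for Sgce to 0.14 for Gng11, and none was called.

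The Cdkn1c domain is controlled by Kcnq1ot1, a long noncoding RNA read from the paternal copy that silences the maternally expressed genes around it on that copy. Kcnq1ot1 itself was at 6.97 ± 0.29 in male controls and 7.02 ± 0.47 in male knockouts (SD, n = 6 each), a difference of 0.05 (95% interval -0.35 to 0.45), and of 0.14 without male control 6. Its probe set spread widely between arrays of a group, with a pooled SD of 0.370. Of the 10 tested genes nearest Cdkn1c none was called in males or in females. The highest of them in males was Kcnq1, which encodes a potassium channel subunit, at 0.18 (SE 0.06, unadjusted p = 0.00326, adjusted p = 0.401). It was also 0.18 without male control 6, where the small nucleolar RNA gene Gm23297 was at 0.21. The lowest was Phlda2, which encodes a pleckstrin-homology protein that limits placental growth, at -0.23 (SE 0.12, adjusted p = 0.830), and at -0.29 without male control 6. Phlda2 measured 7.07, 7.10, 7.27, 7.11, 6.87 and 6.68 in male controls and 7.14, 6.71, 6.33, 7.21, 6.83 and 6.52 in male knockouts, and these ranges overlapped. In females it measured 7.10, 7.29, 7.16, 7.28 and 7.21 in controls and 6.92, 7.10, 6.89, 7.16 and 7.06 in knockouts, a difference of -0.18 (SE 0.13, unadjusted p = 0.180). The other tested genes of the domain listed as read from the maternal copy, Slc22a18, Nap1l4, Cd81 and Ascl2, lay between -0.06 and 0.08 in males. The fall of Cdkn1c in males was thus not accompanied by a call at another gene of its domain. Phlda2 had the larger fall there without a call, and its pooled SD was 0.223 against 0.057 for Cdkn1c. Averaged over the sexes Phlda2 stood at -0.20 (SE 0.09, unadjusted p = 0.0311 in limma, adjusted p = 0.623). In females its exact permutation p was 0.0317, where the smallest possible was 0.00794.

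**Figure D3:**
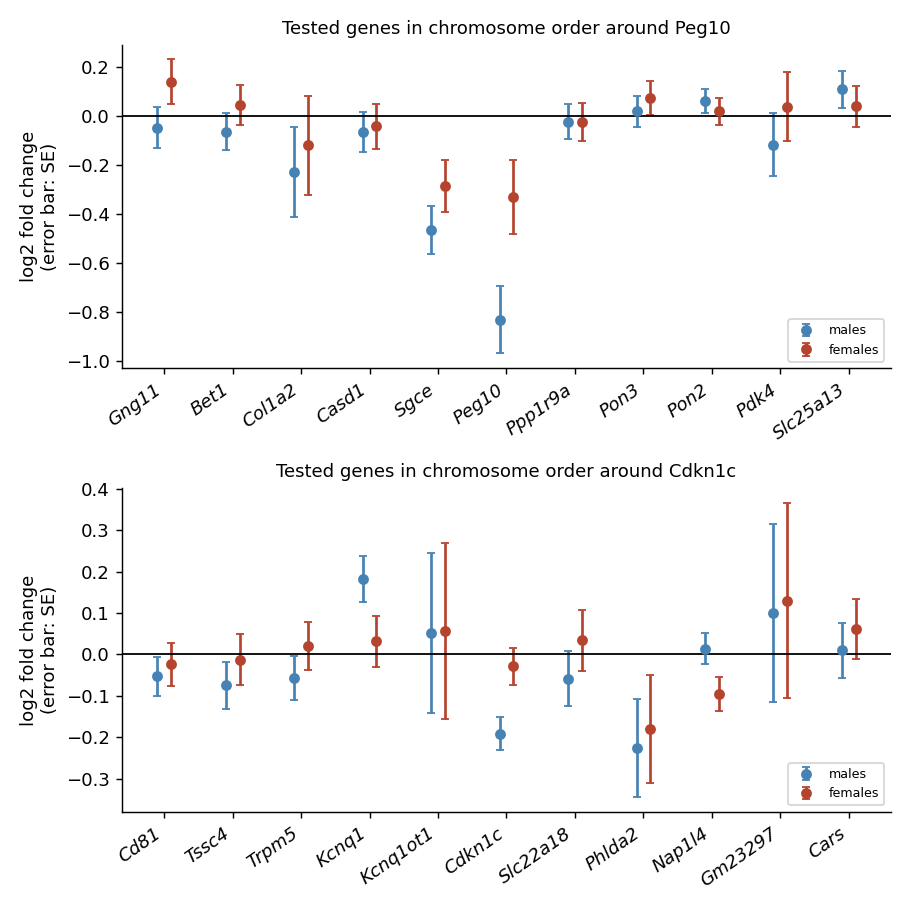
Log2 fold change of knockout minus control (points) with its SE (bars) for Peg10 and the 5 tested genes on each side (top) and for Cdkn1c and the 5 on each side (bottom), in chromosome order and not to genomic scale. Sgce and Peg10 lie at -0.47 and -0.83 in males, with Casd1 at -0.07 and Ppp1r9a at -0.02 on either side, while the genes around Cdkn1c run from -0.23 to 0.18.

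By parental origin, 2 of the 17 tested genes read from the paternal copy were called in males (Peg10 and Sgce) and 1 of the 15 read from the maternal copy (Cdkn1c), shares of 11.8% and 6.67% against 0.199% of all genes. Leaving out male control 6, these were 1 of 17 (Peg10) and 0 of 15, against 0.142%. Gnas, whose active copy depends on the transcript, stood at -0.01 (95% interval -0.08 to 0.07). The paternal genes had a median of -0.02 with 10 of 17 below zero, and the maternal genes a median of 0.01 with 7 of 15 below zero. The medians without male control 6 were 0.02 and 0.00, with 8 of 17 and 6 of 15 below zero. In females the medians were -0.02 and -0.03. Over all genes tested the median was 0.01 in both sexes.

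Igf2, Igf2r and Dlk1 were not called in either sex. Igf2, the fetal growth factor read from the paternal copy, ran in male controls from 9.27 through a median of 9.45 to 9.57, and in male knockouts from 9.32 through 9.43 to 9.69. In females it was at 9.51 ± 0.20 in controls and 9.59 ± 0.06 in knockouts (SD, n = 5 each). The difference was 0.01 in males (95% interval -0.14 to 0.16) and 0.08 in females (95% interval -0.08 to 0.25). Igf2r, the receptor that clears IGF2 and is read from the maternal copy, was at 8.83 ± 0.20 in male controls and 8.88 ± 0.11 in male knockouts (SD, n = 6 each), and at 8.75 ± 0.03 and 8.71 ± 0.16 in the females (SD, n = 5 each). It differed by 0.05 in males (95% interval -0.11 to 0.22) and by -0.04 in females (95% interval -0.22 to 0.14). Dlk1, a delta-like transmembrane protein read from the paternal copy, was at 6.69 ± 0.24 in male controls and 6.52 ± 0.20 in male knockouts, a difference of -0.16 (SE 0.09, 95% interval -0.36 to 0.03). The difference was -0.09 (SE 0.09) without male control 6. In females Dlk1 was at 6.62 ± 0.13 and 6.55 ± 0.06 (SD, n = 5 each).

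The Peg3 domain held the next values below zero in males. Zim1, a zinc-finger gene read from the maternal copy, measured 7.15, 7.11, 7.39, 6.91, 7.07 and 7.23 in male controls and 6.46, 6.97, 6.93, 7.20, 6.76 and 6.56 in male knockouts. The ranges overlapped, and the difference of -0.33 (SE 0.12, unadjusted p = 0.00912, adjusted p = 0.553) did not pass. Peg3, a zinc-finger gene read from the paternal copy, stood at -0.25 (SE 0.10, unadjusted p = 0.0224, adjusted p = 0.682). In females they stood at 0.00 and 0.02. The largest positive value in males was that of Rasgrf1, a guanine nucleotide exchange factor, at 0.26 (SE 0.13, adjusted p = 0.830). That value was 0.16 without male control 6 and lay below Kcnq1 at 0.18, while Zim1 and Peg3 were at -0.32 and -0.22. All told, 6 of the 33 members had an unadjusted p under 0.05 in males (18.2%), against 6.27% of all genes, and without male control 6 also 6 members, against 5.93%.

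More members were called between the sexes than between knockouts and controls, as was the case for all genes. Between male and female controls 5 of 33 members were called (15.2%), against 6.94% of all genes (1322 genes). Plagl1, Ndn and Kcnq1 were higher in males (3 members, against 3.27% of all genes), and Grb10 and Nnat were lower (2 members, against 3.67%). Between male and female knockouts 7 of 33 members were called (21.2%), against 7.19% of all genes (1369 genes). Plagl1, Kcnq1 and Nap1l4 were higher in male knockouts (3 members, against 3.66% of all genes), and Grb10, Nnat, Cdkn1c and Zim1 were lower (4 members, against 3.52%). Plagl1, Kcnq1, Grb10 and Nnat were thus called in the same direction in both genotypes, though each lost a call under alternatives given with its values. Without male control 6 the same 5 members were called between controls, against 6.29% of all genes, and the same 7 between knockouts, against 7.28%. Between controls Ndn was then at 0.27 (adjusted p = 0.0157 in limma) and Kcnq1 at 0.22 (adjusted p = 0.0376). Grb10 was at -0.26 (adjusted p = 0.0113) and Nnat at -0.31 (adjusted p = 0.00858), and Plagl1 is given below.

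Plagl1, a zinc-finger transcription factor read from the paternal copy, measured 8.05, 8.27, 7.98, 8.19, 8.21 and 8.86 in male controls and 8.16, 7.71, 7.89, 7.48 and 7.64 in female controls. Female control 1 lay within the male range and the other female controls below it. The difference was 0.48 (SE 0.12, 1.40-fold, adjusted p = 0.0133), and 0.36 (adjusted p = 0.0164) without male control 6, the highest array. In knockouts the 6 male arrays ran from 7.96 to 8.23 and the 5 female arrays from 7.60 to 7.82, without overlap (2.79% of all genes in this direction), a difference of 0.39 (SE 0.12, adjusted p = 0.0480). The call in knockouts was lost in 16 of 22 fits that each left out 1 array, among them each of the 5 female knockouts, and with adjusted p up to 0.117 over all alternatives. The call in controls was made in all 22 such fits and lost with only the control arrays in the model (adjusted p = 0.0797).

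Grb10, an adaptor that restrains signalling of the insulin and IGF receptors, measured 10.47, 10.51, 10.38, 10.43, 10.47 and 10.50 in male controls and 10.69, 10.83, 10.76, 10.77 and 10.53 in female controls. Every male control lay below every female control, as was the case for 2.82% of all genes. The difference was -0.25 (SE 0.06, 1.19-fold, adjusted p = 0.00797), and in knockouts, where the ranges overlapped, -0.24 (SE 0.06, adjusted p = 0.0122). After centring of the array medians neither difference was called, at -0.22 in each comparison (adjusted p = 0.112 in controls and 0.103 in knockouts).

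Nnat, which encodes the small membrane protein neuronatin and is read from the paternal copy, measured 7.79, 7.58, 7.67, 7.51, 7.53 and 7.71 in male controls and 7.89, 7.89, 8.06, 7.99 and 7.82 in female controls. In knockouts it measured 7.67, 7.53, 7.66, 7.87, 7.78 and 7.47 in males and 8.02, 8.16, 7.94, 8.01 and 8.00 in females. In both genotypes every male array lay below every female array (in knockouts 3.03% of all genes). The differences were -0.30 (SE 0.07, adjusted p = 0.00727) and -0.36 (SE 0.07, adjusted p = 0.00105). In controls the call was lost after centring of the array medians (-0.26, adjusted p = 0.0880). Blcap, in whose intron Nnat lies, was at -0.09 in controls and -0.04 in knockouts and was not called.

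The RefSeq windows from 250 bases before to 50 after the transcription start on GRCm38.p6 are shown for these 3 genes, which were called between the sexes in both genotypes. Windows were found for 35 of the 42 members, and for 5 of the 10 members called in any comparison. Peg10, Sgce, Cdkn1c, Kcnq1 and Nap1l4 had no window, so their promoters were not searched. Capitals mark each CG dinucleotide, the site at which imprinted control regions carry DNA methylation. The arrays measured no methylation.
Plagl1, chr10:13090582-13090881, plus strand: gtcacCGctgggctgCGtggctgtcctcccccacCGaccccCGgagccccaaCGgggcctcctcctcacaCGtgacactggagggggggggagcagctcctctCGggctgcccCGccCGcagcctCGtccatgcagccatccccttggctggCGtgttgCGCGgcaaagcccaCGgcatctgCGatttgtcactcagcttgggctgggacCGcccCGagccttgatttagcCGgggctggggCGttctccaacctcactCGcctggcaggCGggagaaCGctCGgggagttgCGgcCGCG
Grb10, chr11:12037371-12037670, minus strand: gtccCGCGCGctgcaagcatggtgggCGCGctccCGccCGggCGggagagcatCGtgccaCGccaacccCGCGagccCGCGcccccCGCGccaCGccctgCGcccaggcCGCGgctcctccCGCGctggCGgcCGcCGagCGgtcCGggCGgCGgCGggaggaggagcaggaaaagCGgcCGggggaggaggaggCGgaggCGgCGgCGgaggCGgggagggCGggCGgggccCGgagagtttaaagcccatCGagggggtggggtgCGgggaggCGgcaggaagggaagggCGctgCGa
Nnat, chr2:157559828-157560127, plus strand: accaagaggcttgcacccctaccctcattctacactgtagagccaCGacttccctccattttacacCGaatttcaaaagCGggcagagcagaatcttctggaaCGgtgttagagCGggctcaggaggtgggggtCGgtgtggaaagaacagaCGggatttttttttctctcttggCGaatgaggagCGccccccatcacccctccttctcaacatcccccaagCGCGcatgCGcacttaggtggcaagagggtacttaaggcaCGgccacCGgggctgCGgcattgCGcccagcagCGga
Grb10 has a second window in the table, chr11:12027922-12028221 on the minus strand, which holds 9 CG dinucleotides and is not shown. The windows shown hold 26, 45 and 17 CG dinucleotides, against a median of 7 over 32851 mouse windows of 300 bases. Of the 55 windows of members, 44 hold more than that median, and their own median is 17. Both strands were searched for 2 SOX cores, AACAAT (in 10.7% of all windows) and ACAAAG (in 18.7%), and for the androgen receptor half-site AGAACA (in 19% of all windows). These motifs share letters, so their matches can overlap. None of the 3 is in the windows of Plagl1 or in either window of Grb10, and AGAACA is in that of Nnat, 106 bases before the start. A match is a description of the sequence and not a bound site.

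Kcnq1 measured 6.02, 5.86, 5.88, 6.10, 5.93 and 5.93 in male controls and 5.76, 5.88, 5.66, 5.73 and 5.69 in female controls, with an overlap at female control 2. In male knockouts it measured 6.26, 6.24, 6.09, 5.95, 6.06 and 6.22, all above the female knockouts at 5.78, 5.71, 5.85, 5.78 and 5.75. The differences were 0.21 (SE 0.06, adjusted p = 0.0264) and 0.36 (SE 0.06, adjusted p = 0.000172). The call in controls was lost in 5 of 22 fits that each left out 1 array, those without male control 1 and without female controls 1, 3, 4 or 5, and with the replicate block, at adjusted p of at most 0.0758. The call in knockouts was made in all of these. Nap1l4, in the same domain, was 0.19 higher in male than in female knockouts (SE 0.04, adjusted p = 0.00288), with male arrays from 9.97 to 10.16 and female arrays from 9.79 to 9.89. In controls its difference was 0.08 (SE 0.04), not called. Cdkn1c was lower in male than in female knockouts (-0.16, SE 0.04, adjusted p = 0.0172), with no overlap, and stood at 0.00 between controls (95% interval -0.09 to 0.09). The call in knockouts was lost without female knockout 2 and after centring of the array medians (adjusted p up to 0.191). Whether the sex difference of these genes changed with genotype is the interaction given above, which was called for none of them.

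Ndn measured 9.64, 9.51, 9.61, 9.32, 9.38 and 9.71 in male controls and 9.22, 9.30, 9.39, 9.08 and 9.11 in female controls. The ranges overlapped at female control 3, and the difference was 0.31 (SE 0.07, adjusted p = 0.00570). In knockouts the same difference was 0.01 (95% interval -0.14 to 0.15). Zim1 was lower in male than in female knockouts (-0.41, SE 0.12, adjusted p = 0.0398), with ranges that overlapped, from 6.46 to 7.20 and from 7.06 to 7.53. Mest, a hydrolase-fold gene read from the paternal copy and a marker of mesoderm, had the largest difference between controls, 0.54 (95% interval 0.12 to 0.96), and was not called. Its difference was 0.35 without male control 6, below Plagl1 at 0.36. Peg10 stood at 0.37 between controls (95% interval 0.07 to 0.67) and at 0.22 without that array.

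**Figure D4:**
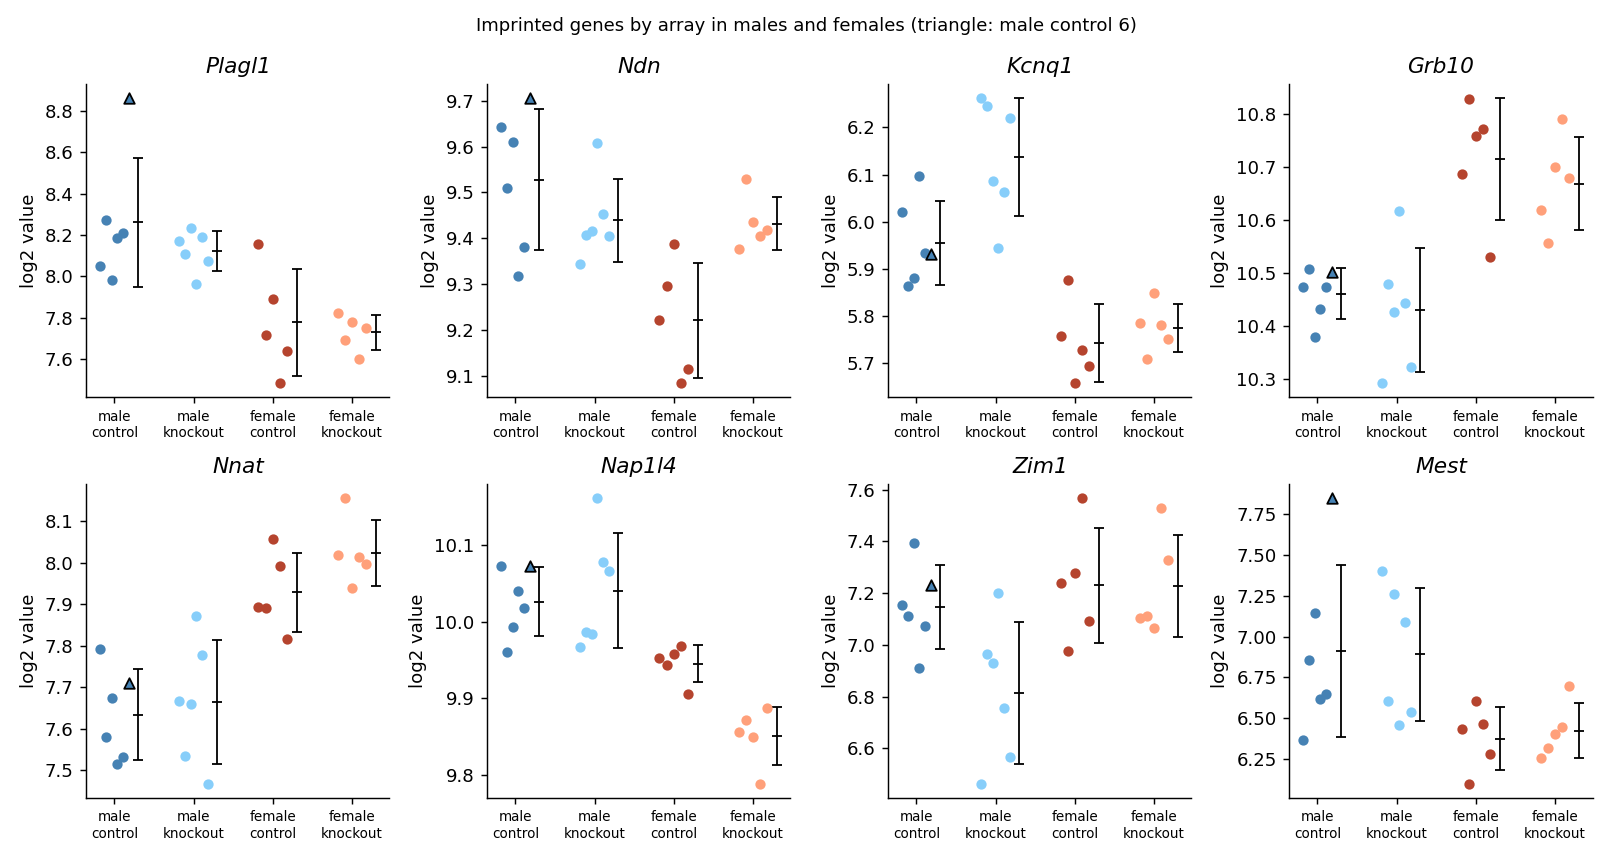
Deposited log2 value of 8 members on each array (points) by group, with the group mean and SD beside the points; each panel has its own axis, which does not start at 0. The triangle is male control 6, at 8.86 for Plagl1 and 7.85 for Mest the highest array of its group. Nnat is lower in every male than in every female array of the same genotype.

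**Figure D5:**
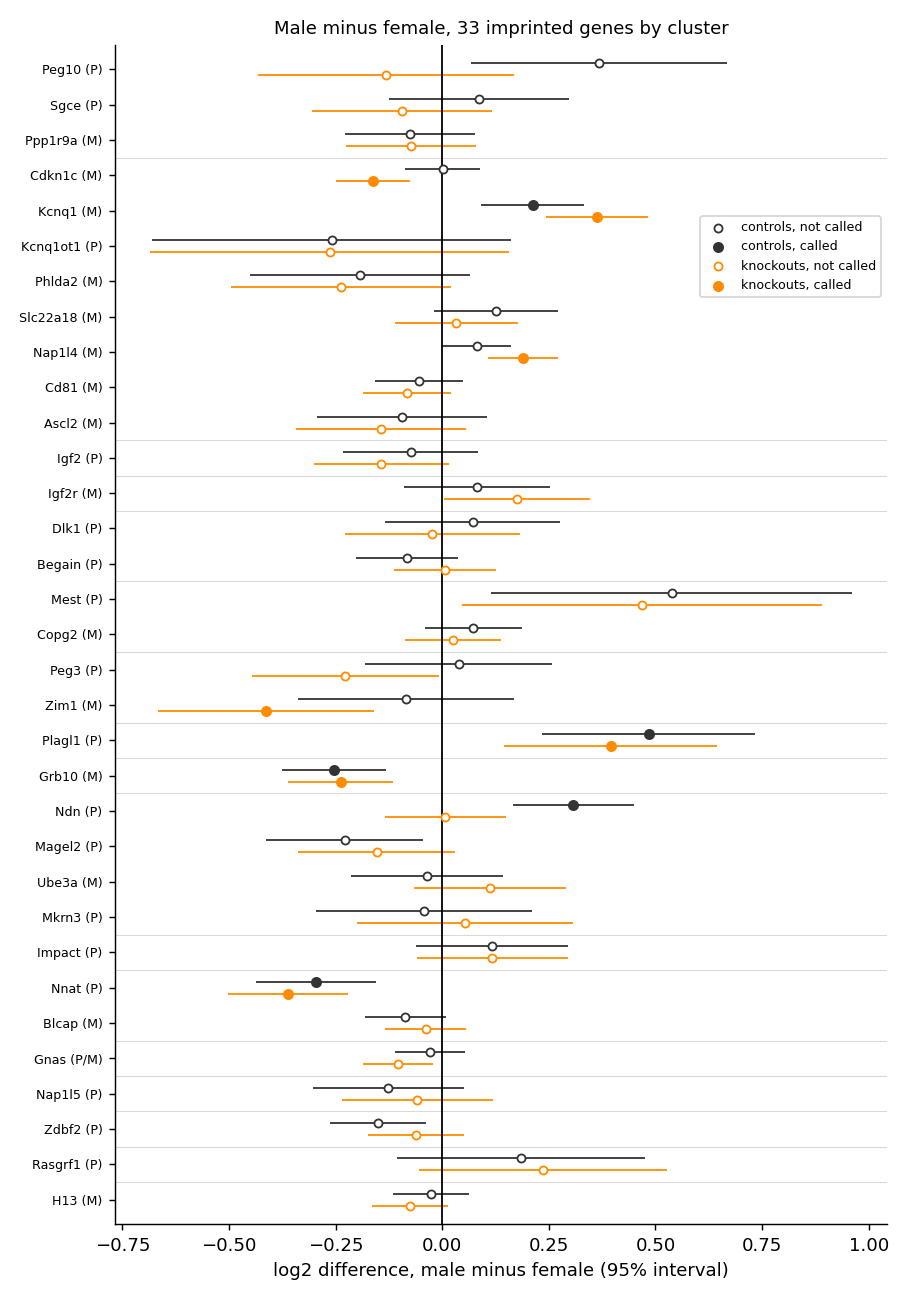
Log2 difference of male minus female (points) with its 95% interval (lines) for the 33 tested members in controls and in knockouts, ordered by cluster. Filled points are called at an adjusted p under 0.05. Plagl1 (0.48 and 0.39) and Kcnq1 (0.21 and 0.36) are filled on the right, and Grb10 (-0.25 and -0.24) and Nnat (-0.30 and -0.36) on the left in both genotypes.

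Male control 6 was above all other male controls for 12 of the 33 members (36.4%), against 17.9% of all genes, and below all of them for 7 (21.2%), against 21.0%. The largest departures from the mean of the other 5 were 1.12 for Mest, 0.86 for Peg10, 0.72 for Plagl1, 0.58 for Sgce and 0.52 for Kcnq1ot1. Rasgrf1 departed by -0.59 and Phlda2 by -0.41. Peg10, Sgce and Cdkn1c were thus highest on the array with the highest mesenchyme and smooth muscle markers, and the values without this array are those given above.

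Over the 22 arrays, after removal of the group means, neighbouring imprinted genes were compared in pairs. Both genes were tested in 5 of 11 pairs, and none passed. For Peg10 and Sgce, Pearson's r was 0.56 (permutation p = 0.0685, adjusted p = 0.209) and Spearman's rho 0.48 (permutation p = 0.0341, adjusted p = 0.102). Without male controls 6 and 4, the arrays farthest from the median of Peg10, r was 0.19, with both still counted in their group mean. Without male control 6 alone, and with its group mean taken anew, r was 0.12, so the relation rests on that array. For Nnat and Blcap r was -0.37 (permutation p = 0.0836, adjusted p = 0.209). For Cdkn1c with Phlda2, Cdkn1c with Kcnq1ot1, and Mest with Copg2, r was -0.26, 0.15 and -0.08. The genes whose deviations were most like those of Peg10 were Cacna1c, Stard9, Pcolce, Pmp22 and Col14a1. Their r ran from 0.79 to 0.80 over 22 arrays. With male control 6 dropped but still counted in its group mean, r ran from 0.58 to 0.63, so these values are not free of that array. Sgce was at rank 244. For Cdkn1c they were Gm12842, Eef1b2, Gm4462, Gm6451 and Rplp0-ps1, with r from 0.77 to 0.81. With male control 6 dropped in the same way, r ran from 0.67 to 0.83. These correlations describe arrays that share a normalization.

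Genes with related roles were counted alongside. Of 26 tested genes among 39 further imprinted genes, none was called between knockouts and controls in either sex or on average, and 4 (15.4%) were called between the sexes in each genotype, against 6.94% of all genes in controls and 7.19% in knockouts. Male minus female, Smoc1, a matrix protein gene, stood at -0.76 in controls and in knockouts, and Atp10a, a membrane ATPase gene, at 0.70 and 0.90. Of 17 tested genes that set or keep imprints, such as Dnmt1, Uhrf1, Trim28 and Zfp57, none was called between knockouts and controls. Zfp57, a zinc-finger protein that protects imprints from demethylation, was lower in males, at -0.25 in controls (adjusted p = 0.0474) and -0.52 in knockouts (adjusted p = 6.35e-05). Of 7 other genes for inhibitors of cyclin-dependent kinases none was called between knockouts and controls, and Cdkn1a, which encodes p21, was lower in males, at -0.70 in controls and -0.49 in knockouts. Of 7 other tested genes derived, like Peg10, from gag genes of retrotransposons, though not all from the same element, none was called between knockouts and controls. Arc, on this list, was higher in males by 1.21 in controls and 1.42 in knockouts, and Rtl3 by 0.73 in knockouts. Of the marker genes of mesenchyme (13 tested) and smooth muscle (9 tested), none was called between male knockouts and controls, where 8 of 13 and 8 of 9 lay below zero with medians of -0.08 and -0.15. The counts without male control 6 were 6 of 13 and 4 of 9, with medians of 0.02 and 0.00. Between male and female controls 10 of 13 and 8 of 9 lay above zero, with medians of 0.08 and 0.15. Without male control 6 these were 4 of 13 and 6 of 9, with medians of -0.08 and 0.01. Between the sexes 1 of 13 mesenchyme markers (7.69%) was called in each genotype, against 6.94% and 7.19% of all genes, and no smooth muscle marker. Their part in the member differences was not tested. Of 8 urothelium markers, such as the uroplakins, none was called between knockouts and controls or between the sexes. All 8 were above zero in female knockouts against controls, with a median of 0.25 and 4 at an unadjusted p under 0.05 in limma. Their mean per array ran from 9.45 to 9.93 in female controls and from 9.57 to 10.24 in female knockouts. In male against female knockouts 7 of 8 were below zero, with a median of -0.22. Their part in the member differences in these groups was not tested. Of the tested markers of endothelium (5), blood and immune cells (7) and nerve and glia (4), none was called between knockouts and controls in either sex. Of the 11 sinus epithelium markers, 1 (9.09%) was called lower in knockouts of each sex, and it was Shh. Cre sat at a Shh allele in every knockout and in no control. The mean of Shh was 11.22 in male controls and 10.77 in male knockouts, and 10.76 and 10.20 in females. No other marker of this list was called between knockouts and controls of either sex. The shares of all genes called lower were 0.178% in males and 0.0315% in females. Between males and females 4 (36.4%) were called in controls and 6 (54.5%) in knockouts, against 6.94% and 7.19% of all genes. Their part in the member differences was not tested.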

How the data were processed

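Epithelial RNA of 22 fetal samples was hybridised to Affymetrix whole-transcript arrays. For each array the table that the authors deposited gives log2 values of 72688 probe sets, 65770 of them transcript clusters. The log2 scale was inferred from their range, 1.59 to 14.23. The method of background correction, normalization and summarization is not given in the sources used here. Medians per array ran from 5.10 to 5.27, and the values were used as they stand. Precision is set by the number of arrays: the median SE of a knockout effect was 0.065 in males and 0.071 in females.

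Probe sets took their symbols from the platform's annotation, brought up to date for 827 probe sets through gene identifiers, and the brightest passing probe set stood for a gene. limma 3.58.1 in R 4.3.3 fitted the 4 group means over all arrays (18 residual and 4.34 prior degrees of freedom), and 6 comparisons were drawn with moderated two-sided tests. No batch or litter was available as a covariate. The exact permutation tests shuffled arrays between 2 groups, and correlations used 100000 permutations within groups. The labels do not say that equal replicate numbers pair the samples. Deviations of same-numbered arrays correlated from -0.21 to 0.11 in males and from -0.16 to 0.13 in females. So few pairs cannot exclude a weak pairing. No value column lacked a labelled sample.

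The members, gene lists and tests were chosen with earlier results of these data known. Values on every array or by group are given for each called member and for Peg10, Sgce, Cdkn1c, Phlda2, Igf2, Igf2r, Dlk1 and Plagl1, and other members by range and count. Neighbours are the 5 tested genes on each side in RefSeq order on GRCm38.p6. Alternatives were quantile normalization, centred array medians, a filter at the 75th percentile or none, averaged probe sets of a gene, trended and robust eBayes, only the arrays of the groups compared, a replicate block, a covariate of 13 mesenchyme genes, and each array left out. Figures were drawn with matplotlib 3.10.9.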

Additional observations from a re-analysis of the deposited data

Results flagged for a closer look

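A sample far from the others of its group was looked for with Dixon's test in the 4 groups of 14 members whose values are described, and 5 of 56 groups (8.93%) held one, where chance gives about 5%. Cdkn1c was 9.09 in male knockout 6, above the other 5 male knockouts at 8.98 to 9.00, and 9.23 in female knockout 2, above the other 4 female knockouts at 9.14 to 9.16. Both lie nearer to the controls of their sex than the rest of their group. Igf2r was 9.09 in the same male knockout 6, above the others at 8.80 to 8.88. Igf2 was 9.69 in male knockout 4, above the others at 9.32 to 9.44. Plagl1 was 8.86 in male control 6, above the others at 7.98 to 8.27; this is the array with the highest mesenchyme and smooth muscle markers, and their part in the value was not tested.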

How the results depend on the processing

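The call of Peg10 in males was made whichever array was left out (-0.92 to -0.69) and was lost with the male arrays alone in the model. Leaving out 1 array gave 1 to 3 called members in males against 3. Sgce lost its call in males in 16 and Cdkn1c in 17 of 22 such fits, among them those without male control 3 and without male control 6. In males 1 member was called without the filter on dim probe sets, 0 with only the arrays of the groups compared and 1 with the replicate block. Averaged over the sexes, 2 were called whichever array was left out and 1 with the filter at the 75th percentile, where Sgce was not tested. Between male and female controls centring the array medians gave 3 calls against 5, and between knockouts 4 against 7; leaving out arrays gave 4 to 6 and 4 to 7, with 4 without female knockout 2. Plagl1 in knockouts lost its call in 16 of 22 fits and Zim1 in 6. In females and for the interaction 0 members were called throughout, and no called member turned its direction. Without male control 6, members that were not called turned: 3 in males (Impact, Mest and Ppp1r9a), 1 averaged over the sexes (Igf2r), 2 between controls (Cdkn1c and Sgce) and 4 in the interaction (Kcnq1ot1, Mest, Plagl1 and Rasgrf1). The replicate block changed no count of calls by over 1.5 times apart from that in males. A pairing by number was neither labelled nor excluded, so what a call lost there means cannot be told. Rescaling moved the median of all genes by less than 0.1. For male minus female in controls it moved from -0.013 to 0.025 after centring of the array medians. Called differences between the sexes were as small as -0.16 (Cdkn1c in knockouts), so such shifts matter for them, and calls lost after centring are counted above.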

Other observations

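The 5 listed genes without a probe set of their own belong to clusters described above, and the probe sets that hold them with other transcripts were not tested. The probe set annotated with H19 and Mir675, the maternally read noncoding RNA beside Igf2 and its embedded miRNA, was at 12.13 ± 0.06 in male controls, 12.13 ± 0.09 in male knockouts (SD, n = 6 each), 12.20 ± 0.07 in female controls and 12.25 ± 0.05 in female knockouts (SD, n = 5 each). Those of the maternally read noncoding RNAs of the Dlk1 domain had lower means in male knockouts than in male controls and higher means in female knockouts than in female controls. The Meg3 probe set was at 6.33 ± 0.18 and 6.08 ± 0.23 in males and at 6.29 ± 0.13 and 6.32 ± 0.29 in females. The Rian probe set was at 5.54 ± 0.21 and 5.27 ± 0.30 in males and at 5.35 ± 0.16 and 5.55 ± 0.33 in females. The Mirg probe set was at 5.63 ± 0.13 and 5.47 ± 0.14 in males and at 5.58 ± 0.11 and 5.70 ± 0.27 in females. The ranges of knockouts and controls overlapped in both sexes for each of these probe sets. The probe set of Snrpn and Snurf, in the domain of Ndn, was at 7.20 ± 0.17 and 7.16 ± 0.12 in males and at 7.28 ± 0.13 and 7.26 ± 0.10 in females.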
